A study of Rattus norvegicus with 12 samples.

Results

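The genes described here make sterols, fatty acids and triglycerides, or control that synthesis and the export of cholesterol. The list held 39 rat genes, given by name, and a gene was read from the brightest probe whose RefSeq accession mapped to it. Of these, 35 had a matched probe and all 35 were tested, out of 12353 genes with a symbol and a tested probe in the whole series; Srebf1, Insig1, Mvk and Fasn had no matched probe and are not analysed here. By role they were 3 regulators of the sterol pathway, 14 sterol synthesis enzymes, 9 fatty acid genes, 5 triglyceride synthesis genes and 4 genes of the liver X receptor (LXR) and sterol efflux. RNA came from veins of male rats, on 12 single-colour Agilent arrays. Day 0 was vein from 3 control samples of rats that had no operation, and days 7, 14 and 28 were external jugular vein that had been joined into the carotid artery as a bypass, with 3 samples at each time. No strain, age or genetic change is given in the labels, and no control operated on without a graft was included, so surgery, arterial flow and time cannot be told apart in any comparison with day 0. Replicate numbers 1 to 3 only name the arrays of a day, in accession order. The labels do not say whether each array held a separate animal, although independent experiments are stated for the times after surgery, so each p-value reflects only how far these samples scatter, and that scatter could be technical.

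Cholesterol is built from acetyl-CoA through mevalonate, squalene and lanosterol. The pathway is switched on by the membrane-bound factor SREBP-2, which the escort protein Scap carries out of the endoplasmic reticulum when sterols are low and which Insig proteins hold back when sterols are high. Fatty acids are made from acetyl-CoA by acetyl-CoA carboxylase and fatty acid synthase, then lengthened by Elovl enzymes and given double bonds by desaturases, and are joined to glycerol to form triglycerides. When cells hold much cholesterol, oxysterols activate LXR, which raises the transporters Abca1 and Abcg1 and, in macrophages and fat cells, apolipoprotein E. Vessel walls contain smooth muscle and endothelium, lie in a sheath of fat, and after grafting take up macrophages, all of which run parts of these pathways.

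A level below is the log2 of a probe's processed intensity minus the 75th percentile of its array, so 0 is the brightness of the 75th percentile spot. Levels are compared only within a probe, never between genes. Between 71.9% and 82.6% of gene spots were well above background on each array, and 34 of the 35 tested members were so on all 12 arrays, with Acacb on 11. 4 scans were recorded. Scan 1 held day 0 replicates 1 and 2 with day 28 replicate 3, scan 2 held day 0 replicate 3 alone, scan 3 held all day 7 arrays with day 14 replicate 1, and scan 4 held day 14 replicates 2 and 3 with day 28 replicates 1 and 2. Day 0 replicate 3 and day 7 replicate 3 had 460 and 393 non-uniform spots, against 2 to 11 on the other 10 arrays. The array farthest from the others of its day was replicate 3 in 18 of 35 members on day 0, in 22 on day 7 and in 26 on day 28, and replicate 2 in 24 on day 14. The median SD of the members was 0.48 on day 0, 0.28 on day 7, 0.13 on day 14 and 0.22 on day 28.

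Taken over the list, 19 of the 35 genes changed on at least 1 graft day and 16 on none. A gene was called where its limma adjusted p against day 0 was under 0.05 after adjustment over all 21063 probes tested. In either direction, 33.1%, 37.5% and 33.9% of all probes were called on days 7, 14 and 28. The share of all probes called on at least 1 graft day was not counted, so the 19 of 35 has no such share beside it. Day 7 had 11 members higher (31.4%) and 6 lower (17.1%), beside 17.7% and 15.4% of all probes. On day 14, 13 members were higher (37.1%) and 4 lower (11.4%), beside 20.1% and 17.4% of all probes. By day 28, 10 were higher (28.6%) and 5 lower (14.3%), beside 17.4% and 16.5% of all probes. Of the 12353 tested genes, each read from its brightest probe as the members were, 20.1%, 22.5% and 20.1% were higher on days 7, 14 and 28. Lower were 16.0%, 18.4% and 15.4% of them. For calls higher, the all-probe shares used below are thus smaller than the gene shares. The share of members called lower was near the share of all probes on each day, and the median change of the list was small, at 0.17, 0.20 and 0.02 on days 7, 14 and 28, against -0.03, 0.02 and 0.01 over all probes. Over the tested genes the median was -0.0, 0.04 and 0.07, so on day 28 the list lay below it. 9 genes were higher on all 3 graft days, 4 were lower on all 3, and 0 were called in opposite directions. The shares of all probes with these patterns were not counted. The 3 comparisons share the same day 0 arrays, so their likeness is partly set by those arrays. In bulk tissue, a change in the number of cells of a type and a change in RNA per cell cannot be told apart.

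**Figure D1:**
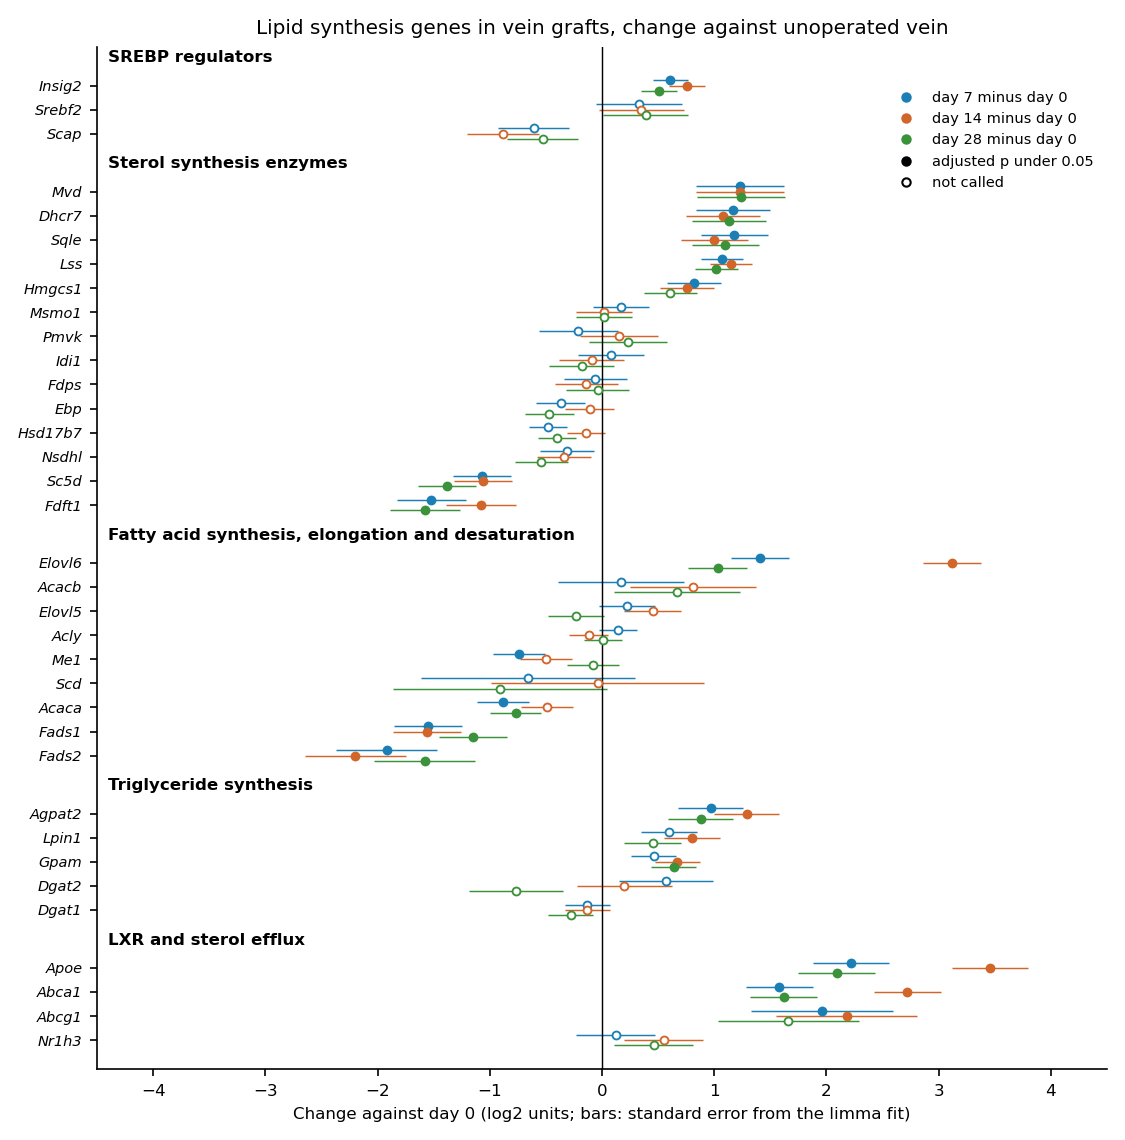
Change against day 0 of the 35 tested members on days 7, 14 and 28 (x axis, log2 units, bars are standard errors from the limma fit), grouped by role, with filled points at adjusted p under 0.05. On day 14 Apoe, Elovl6 and Abca1 lie farthest to the right, at 3.46, 3.12 and 2.72, and Fads2 and Fads1 farthest to the left, at -2.20 and -1.56; the sterol enzymes lie on both sides of 0 on every day.

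With the scan as a block in the fit, 7 of the 52 member calls in all comparisons were kept: Abca1, Apoe and Elovl6 on day 14, and Abca1, Apoe, Lss and Sc5d on day 28. No day 7 call was kept, and all-probe calls for day 7 also fell to 56 of 21063. No scan held both day 7 and day 0, so that blocked estimate is joined through day 14 arrays of scans 3 and 4 and day 28 arrays of scans 4 and 1. Day 0 replicate 3, alone in scan 2, has no weight in the blocked changes. All blocked changes against day 0, on every graft day, thus rest on 1 graft array, day 28 replicate 3. It is set against day 0 replicates 1 and 2 in scan 1, and was the farthest array of its day in 26 of 35 members. Within scan 1, where 1 day 28 array can be set against 2 day 0 arrays, all 15 members called on day 28 had the sign of the pooled change. Those 3 arrays also entered the pooled calls, so this is a description and not a separate check, and some changes were smaller there, at 0.55 for Dhcr7 and -0.36 for Acaca. The blocked day 28 changes are these same within-scan differences. Each array left out in turn left 26 of the 52 calls standing and ended 26 under at least 1 omission.

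7 of the 14 sterol synthesis enzymes changed, 5 upward and 2 downward. Mvd, which decarboxylates mevalonate diphosphate, Sqle, which epoxidises squalene, Lss, which closes the ring to lanosterol, and Dhcr7, which makes cholesterol from its last precursor, were higher on all 3 graft days, by 2.00-fold to 2.36-fold. Hmgcs1, which makes the precursor of mevalonate, was higher on days 7 and 14. Fdft1, the squalene synthase that feeds Sqle, and Sc5d, the desaturase that acts just before Dhcr7, were lower on all 3 days, by 2.08-fold to 2.99-fold. The list's median change was therefore near 0, at 0.01, -0.03 and -0.01 on days 7, 14 and 28, with 5, 5 and 4 enzymes called higher and 2 lower on each day. The share higher was 35.7%, 35.7% and 28.6%, beside 17.7%, 20.1% and 17.4% of all probes. The share lower, 14.3% on each day, was near the 15.4%, 17.4% and 16.5% of all probes.

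Lss had the least scatter of the enzymes that rose. Its level was 0.11, 0.27 and -0.27 on day 0, 1.12, 0.93 and 1.26 on day 7, 1.14, 1.24 and 1.19 on day 14, and 1.06, 0.83 and 1.29 on day 28. Every graft array lay above every day 0 array. The change against day 0 was 1.07 ± 0.19 on day 7 (limma, SE, adjusted p = 0.00226), 1.15 ± 0.19 on day 14 (adjusted p = 0.00121) and 1.02 ± 0.19 on day 28 (adjusted p = 0.00316). The scan block gave 1.34 on day 7 (adjusted p = 0.26), 1.37 on day 14 (adjusted p = 0.058) and 1.10 on day 28 (adjusted p = 0.047).

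Mvd read 0.33, -0.42 and -1.56 on day 0, 0.82, 0.92 and 0.29 on day 7, 0.62, 0.80 and 0.62 on day 14, and 0.66, 0.55 and 0.86 on day 28. The day 0 arrays spread over nearly 2 log2 units, replicate 3 was the lowest, and day 7 replicate 3 lay just below day 0 replicate 1, while days 14 and 28 did not overlap day 0. Its change was 1.23 ± 0.39, 1.23 ± 0.39 and 1.24 ± 0.39 on days 7, 14 and 28 (limma adjusted p = 0.0351, 0.0309 and 0.0334). Without day 0 replicate 3 the changes were 0.72, 0.72 and 0.73, and none was called (adjusted p = 0.059, 0.056 and 0.057).

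Sqle read -0.39, -0.47 and -0.04 on day 0, 1.07, 1.27 and 0.30 on day 7, 0.73, 0.44 and 0.92 on day 14, and 0.88, 1.20 and 0.31 on day 28. All 9 graft arrays were above the 3 day 0 arrays. The change was 1.18 ± 0.30 on day 7, 1.00 ± 0.30 on day 14 and 1.10 ± 0.30 on day 28 (limma adjusted p = 0.0132, 0.025 and 0.0185).

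For Dhcr7 the levels were -1.42, -2.32 and -2.32 on day 0, -0.65, -0.43 and -1.46 on day 7, -1.06, -0.95 and -0.81 on day 14, and -0.81, -0.54 and -1.32 on day 28. Day 7 replicate 3 alone fell within the day 0 range. The gene was 2.26-fold higher on day 7, 2.11-fold on day 14 and 2.19-fold on day 28 (limma adjusted p = 0.0218, 0.0277 and 0.0254). Hmgcs1 lay between 0.07 and 0.38 on day 0, between 0.74 and 1.30 on day 7 and between 0.93 and 1.08 on day 14, with no overlap, and was 1.76-fold and 1.70-fold higher (limma adjusted p = 0.0234 and 0.0282). On day 28 it read 0.92, 1.24 and 0.36, which overlapped day 0, and the change of 0.61 was not called (adjusted p = 0.0696).

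Fdft1 had the largest changes of the sterol enzymes on days 7 and 28, though not on day 14. Its level was 1.36, 2.08 and 2.78 on day 0, 0.63, 0.59 and 0.45 on day 7, 0.93, 1.23 and 0.83 on day 14, and 0.41, 0.34 and 0.73 on day 28. No graft array reached the lowest day 0 array. The change was -1.52 ± 0.31, -1.08 ± 0.31 and -1.58 ± 0.31 on days 7, 14 and 28 (limma adjusted p = 0.00402, 0.0191 and 0.00356). Within scan 1 the day 28 array was 0.99 below the mean of the 2 day 0 arrays (difference -0.99), which is also its blocked day 28 change.

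Sc5d had tight day 0 levels of 0.27, 0.25 and 0.38. They were -0.62, -0.36 and -1.32 on day 7, -0.75, -0.81 and -0.71 on day 14, and -1.02, -0.74 and -1.49 on day 28, all below day 0. The change was -1.07 ± 0.26, -1.06 ± 0.26 and -1.38 ± 0.26 (limma adjusted p = 0.0107, 0.00975 and 0.00313), and with the scan as a block -1.65, -1.63 and -1.75 (adjusted p = 0.38, 0.11 and 0.046).

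**Figure D2:**
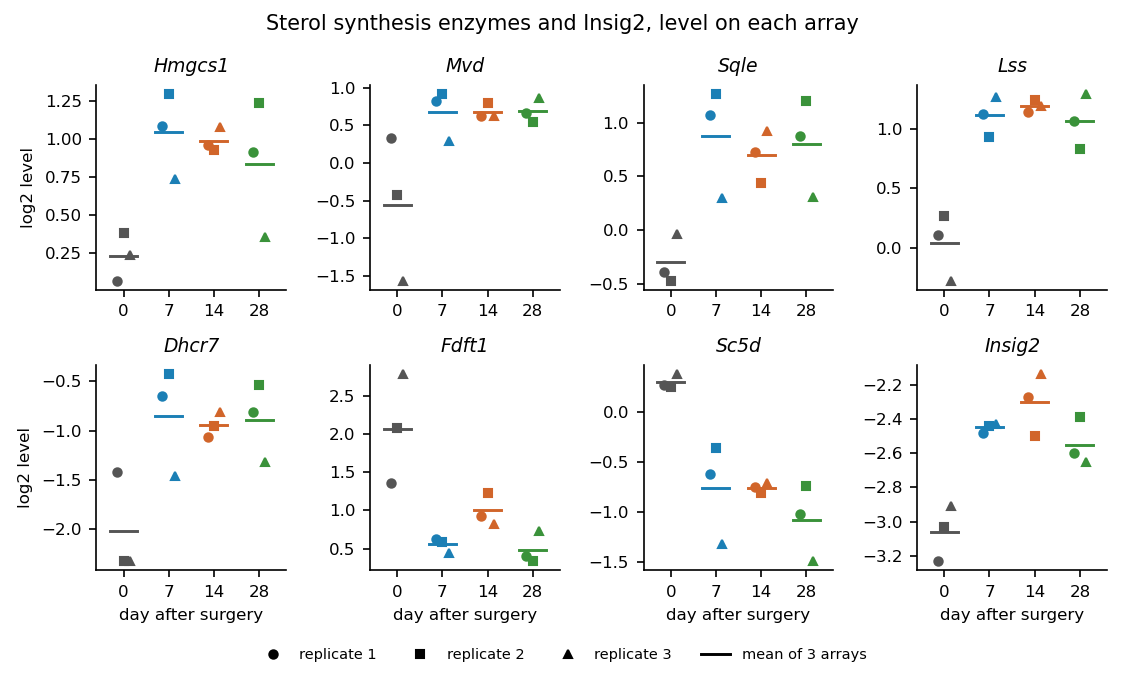
Level of the 7 called sterol enzymes and of Insig2 on each of 12 arrays (y axis, log2 relative to the array's 75th percentile) by day after surgery (x axis), with 1 symbol per replicate and a line at the mean of 3. The means of the first 5 panels and of Insig2 lie higher on the graft days than on day 0, those of Fdft1 and Sc5d lie lower, and the day 0 points of Mvd span from -1.56 to 0.33.

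The other 7 sterol enzymes were called on no graft day. Pmvk, a mevalonate pathway kinase, Idi1, the isopentenyl diphosphate isomerase, Fdps, the farnesyl diphosphate synthase, and Msmo1, a methyl sterol oxidase, had changes between -0.21 and 0.23 on every day. Nsdhl and Hsd17b7, both of the demethylation steps after lanosterol, and Ebp, a sterol isomerase, had changes between -0.54 and -0.11. Of these the closest to the threshold was Hsd17b7 on day 7, at -0.48 ± 0.17 (limma adjusted p = 0.0513). These p-values do not show that the levels were the same.

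The calls of the enzymes that rose rested on few arrays. Omitting 1 array ended the Mvd calls on 5 to 7 of the 12 omissions, the Dhcr7 calls on 4 or 5, the Sqle calls on 2 to 4 and the Hmgcs1 calls on 3 or 4, with adjusted p between 0.05 and 0.10 in those fits. The arrays that did so were, on each day, day 0 replicates 2 and 3 for Mvd and Dhcr7 and day 0 replicate 1 for Hmgcs1, with day 0 replicates 1 and 2 for Sqle on day 14 and replicate 2 on day 28. Day 7 replicates 1 and 2 did so for the day 7 calls of all 4, and most arrays of days 14 and 28 for the calls on those days. Without day 14 replicate 1, Mvd was lost on days 7 and 28 too, and without day 14 replicate 3 or day 28 replicate 1 on day 7. The Lss and Sc5d calls, and those of Fdft1 on days 7 and 28, held under all 12; the day 14 call of Fdft1 was lost without day 14 replicate 1 or 3 (adjusted p = 0.061 and 0.068).

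With the scan as a block, Sqle, Dhcr7, Fdft1, Mvd and Hmgcs1 were called on no graft day. Sqle changed by 0.53, 0.38 and 0.74 on days 7, 14 and 28 (adjusted p = 0.85, 0.74 and 0.32) and Dhcr7 by 0.56, 0.34 and 0.55 (adjusted p = 0.87, 0.81 and 0.54). Fdft1 changed by -0.72, -0.34 and -0.99 (adjusted p = 0.69, 0.70 and 0.12) and Mvd by 1.06, 1.01 and 0.90 (adjusted p = 0.59, 0.29 and 0.20). Hmgcs1 was near 0 in that fit, at 0.16 on day 7 and 0.07 on day 14 (adjusted p = 0.95 and 0.94). Normexp ended every call of Hmgcs1 (0.66 and 0.74, adjusted p = 0.11 and 0.070), Mvd and Dhcr7, and 1 call each of Sqle (day 7), Lss (day 7) and Fdft1 (day 14).

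On each graft day, more than 7 of the 14 sterol enzymes were lowest on the same array. Day 7 replicate 3 was the lowest array of its day in 12 of 14 enzymes, all but Lss and Nsdhl, where 49.7% of all probes were lowest on it. Day 28 replicate 3 was the lowest in 8 of 14, among them Hmgcs1, Sqle, Sc5d and Dhcr7, against 36.8% of all probes. Day 14 replicate 2 was the lowest in 9 of 14, against 35.0% of all probes. The mean level of 7 Schwann cell genes was also lowest on day 7 replicate 3 and day 28 replicate 3, at -1.85 on day 7 replicate 3 against 0.10 and 0.34 on the other day 7 arrays, and at -0.71 on day 28 replicate 3 against 0.48 and 0.93 on the other day 28 arrays. On day 14 it was highest on replicate 2, at -0.71, against -0.85 and -0.89 on the other day 14 arrays. This order was not particular to Schwann cell genes. The mean of 7 smooth muscle genes was 2.13 on day 7 replicate 3, against 2.75 and 3.03. It was 2.81 on day 28 replicate 3, against 3.04 and 3.07, and on day 14 it was also highest on replicate 2, at 2.18. The endothelial mean was lowest on day 7 replicate 3 (-0.38) but highest on day 28 replicate 3 (1.83). The part of any cell type in the enzyme levels was not tested.

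Promoter windows are shown for 6 members that hold an NF-Y box and had the largest mean graft changes among those called, 4 higher and 2 lower in the grafts, because SREBP-2 is known to act on such promoters together with the factor NF-Y. The windows are from RefSeq, rat build GRCr8, and run from 250 bases before the annotated start to 50 after it, on the strand of the gene. Capitals mark the NF-Y box, CCAAT or its reverse complement ATTGG. The positions are chr19:67414925-67415224 (minus strand) for Mvd, chr20:12118181-12118480 (minus strand) for Lss, chr2:53382054-53382353 (plus strand) for Hmgcs1, chr8:51538228-51538527 (minus strand) for Sc5d, chr1:216252442-216252741 (plus strand) for Fads1 and chr13:35040049-35040348 (minus strand) for Insig2.
Mvd: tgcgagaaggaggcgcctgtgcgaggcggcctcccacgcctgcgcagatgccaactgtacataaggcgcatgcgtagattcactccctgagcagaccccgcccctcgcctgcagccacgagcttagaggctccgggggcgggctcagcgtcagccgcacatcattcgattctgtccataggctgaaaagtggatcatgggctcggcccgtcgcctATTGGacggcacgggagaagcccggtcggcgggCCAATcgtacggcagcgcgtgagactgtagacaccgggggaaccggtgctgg
Lss: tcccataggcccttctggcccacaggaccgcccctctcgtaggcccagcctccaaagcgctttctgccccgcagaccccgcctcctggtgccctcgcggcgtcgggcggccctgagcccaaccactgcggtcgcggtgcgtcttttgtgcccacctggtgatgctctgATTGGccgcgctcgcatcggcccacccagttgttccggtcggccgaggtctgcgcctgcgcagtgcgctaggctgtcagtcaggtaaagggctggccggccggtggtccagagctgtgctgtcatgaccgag
Hmgcs1: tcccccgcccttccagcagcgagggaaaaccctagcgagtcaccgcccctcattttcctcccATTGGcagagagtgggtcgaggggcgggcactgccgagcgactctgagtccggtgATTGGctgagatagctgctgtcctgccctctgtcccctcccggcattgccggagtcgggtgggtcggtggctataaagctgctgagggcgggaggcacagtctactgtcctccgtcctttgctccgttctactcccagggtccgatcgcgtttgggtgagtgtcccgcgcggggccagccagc
Sc5d: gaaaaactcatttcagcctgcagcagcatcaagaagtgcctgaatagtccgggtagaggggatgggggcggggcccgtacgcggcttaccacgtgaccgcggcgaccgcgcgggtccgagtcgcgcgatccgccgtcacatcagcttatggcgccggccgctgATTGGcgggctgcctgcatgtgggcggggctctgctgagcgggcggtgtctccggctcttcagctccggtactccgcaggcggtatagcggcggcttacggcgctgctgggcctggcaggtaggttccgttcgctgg
Fads1: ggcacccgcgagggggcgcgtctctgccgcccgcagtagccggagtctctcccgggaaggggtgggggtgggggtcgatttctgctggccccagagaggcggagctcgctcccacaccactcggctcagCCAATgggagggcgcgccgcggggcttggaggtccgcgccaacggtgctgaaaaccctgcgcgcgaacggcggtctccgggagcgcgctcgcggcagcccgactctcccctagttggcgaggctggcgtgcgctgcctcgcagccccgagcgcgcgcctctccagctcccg
Insig2: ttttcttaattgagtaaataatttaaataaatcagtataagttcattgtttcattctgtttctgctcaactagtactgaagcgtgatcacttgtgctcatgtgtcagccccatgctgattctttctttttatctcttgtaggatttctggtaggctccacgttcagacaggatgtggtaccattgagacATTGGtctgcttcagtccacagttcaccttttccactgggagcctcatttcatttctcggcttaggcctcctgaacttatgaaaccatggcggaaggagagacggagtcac

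Windows were found for 30 of the 39 listed genes. The NF-Y box, searched on both strands, was in 21 of them (70.0%), against 38.3% of 10078 windows of genes tested on the array and 37.7% of all 27457 windows. It was in 6 of 10 windows of members that were called higher, 2 of 4 called lower and 10 of 13 called on no graft day, so members with and without a call both held it. The GC box GGGCGG was in 20 of 30 (66.7%), against 53.0% of windows of tested genes, and the E box CACGTG in 5 of 30 (16.7%), against 8.47%. The sterol regulatory element was searched as TCACCCCAC and, with a free base, as TCACNCCAC, and neither was in any of the 30 windows, against 0.495% and 1.13% of all windows. The direct repeat 4 of LXR was in 0 of 30 and in 1 window of all. In the windows above, the NF-Y boxes begin 35 bases and 2 bases before the start in Mvd (positions -35 and -2), 82 bases before it in Lss (-82), at -188 and -133 in Hmgcs1, at -87 in Sc5d, at -121 in Fads1 and at -61 in Insig2. A match is only a string of letters, and the absence of a match says only that those letters are not in these windows. Whether each annotated start is the one used in vein was not tested. The Insig2 window reads like the end of an intron followed by an exon, so its box may not lie in a promoter.

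Among the regulators, Insig2, which retains the Scap and SREBP complex in the endoplasmic reticulum, was higher on all 3 graft days. Its levels were -3.23, -3.03 and -2.91 on day 0, -2.48, -2.44 and -2.43 on day 7, -2.27, -2.50 and -2.14 on day 14, and -2.60, -2.39 and -2.65 on day 28. No graft array overlapped day 0. The rise was small, at 0.61 ± 0.16, 0.76 ± 0.16 and 0.51 ± 0.16 (limma adjusted p = 0.0174, 0.00501 and 0.0364). Normexp background correction gave 0.86, 0.47 and 0.21 with no call (adjusted p = 0.18, 0.53 and 0.83). The scan block gave 0.48, 0.66 and 0.48 (adjusted p = 0.74, 0.29 and 0.28). The day 7 call was lost without day 7 replicate 1 (change 0.62, adjusted p = 0.051), and the day 28 call under 8 of 12 omissions, all but those of day 0 replicate 3, day 7 replicate 3 and day 14 replicates 2 and 3 (change 0.42 to 0.56, adjusted p = 0.050 to 0.125).

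Srebf2, which encodes SREBP-2 itself, read 2.78, 2.65 and 1.30 on day 0 and lay between 1.93 and 2.97 on the graft days. Its changes of 0.33, 0.35 and 0.39 were not called (limma adjusted p = 0.554, 0.504 and 0.453). Scap read 2.80, 2.46 and 3.82 on day 0 and between 1.94 and 2.70 on the graft days, and its largest change was -0.88 ± 0.32 on day 14, where no array overlapped day 0 (adjusted p = 0.0538). For both genes day 0 replicate 3 was the array farthest from the others, low for Srebf2 and high for Scap.

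5 of the 9 fatty acid genes changed on at least 1 graft day. Elovl6, which lengthens palmitate to stearate, was higher on all 3 graft days and peaked on day 14, while Fads1 and Fads2, the desaturases that make highly unsaturated fatty acids, were lower on all 3 days. Acaca, the acetyl-CoA carboxylase of the committed step, was lower on days 7 and 28, and Me1, the malic enzyme that supplies NADPH, on day 7. Of 9 genes tested, 1 was higher on each day and 4, 2 and 3 were lower on days 7, 14 and 28, with a median change of -0.66, -0.12 and -0.23. The share higher was 11.1% on each day, beside 17.7%, 20.1% and 17.4% of all probes. The share lower was 44.4%, 22.2% and 33.3%, beside 15.4%, 17.4% and 16.5% of all probes.

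Elovl6 read -0.91, -1.69 and -1.67 on day 0, -0.00, 0.04 and -0.09 on day 7, 1.68, 2.11 and 1.30 on day 14, and -0.43, -0.53 and -0.20 on day 28. Each graft day lay above day 0, and the 3 day 14 arrays lay above all others. Its level was 2.65-fold higher than day 0 on day 7, 8.69-fold on day 14 and 2.05-fold on day 28, with changes of 1.41 ± 0.26, 3.12 ± 0.26 and 1.03 ± 0.26 (limma adjusted p = 0.00253, 2.01e-05 and 0.0123). All 3 calls held with any array left out; with the scan as a block the changes were 1.59, 3.29 and 1.10 (adjusted p = 0.42, 0.022 and 0.15).

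Fads2, the first desaturase of that route, showed the largest fall among the members. Its levels were -1.25, 0.00 and -1.12 on day 0, -2.42, -2.11 and -3.58 on day 7, -3.09, -3.05 and -2.83 on day 14, and -2.28, -1.82 and -3.01 on day 28. No graft array overlapped day 0. The gene was 3.78-fold, 4.60-fold and 3.00-fold lower, with changes of -1.92 ± 0.45, -2.20 ± 0.45 and -1.58 ± 0.45 (limma adjusted p = 0.00891, 0.00377 and 0.022). The day 28 call was lost without day 0 replicate 2, day 28 replicate 1 or day 28 replicate 3 (change -1.63 to -1.19, adjusted p = 0.057 to 0.081). The scan block gave -2.90, -3.28 and -2.39 (adjusted p = 0.38, 0.085 and 0.085), and normexp gave -0.96, -1.65 and -1.29, with the day 7 and day 28 calls lost (adjusted p = 0.26, 0.047 and 0.13).

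Fads1, its partner desaturase, fell beside it. It read 3.02, 3.24 and 3.56 on day 0, 1.77, 2.22 and 1.19 on day 7, 1.64, 1.80 and 1.69 on day 14, and 2.24, 2.53 and 1.58 on day 28, again with no overlap with day 0. The changes were -1.55 ± 0.30, -1.56 ± 0.30 and -1.15 ± 0.30 (limma adjusted p = 0.00343, 0.00271 and 0.015), and the scan block gave -2.10, -2.19 and -1.55 (adjusted p = 0.28, 0.061 and 0.067). On days 7 and 28 both desaturases were lowest on replicate 3, the arrays on which most sterol enzymes were also lowest. Without day 28 replicate 3 the day 28 change of Fads1 was -0.89 and was not called (adjusted p = 0.055).

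Acaca read -2.30, -1.70 and -1.59 on day 0, -2.57, -2.89 and -2.79 on day 7, -2.52, -2.13 and -2.40 on day 14, and -2.76, -2.79 and -2.36 on day 28. Days 7 and 28 lay below day 0, with changes of -0.88 ± 0.23 and -0.77 ± 0.23 (limma adjusted p = 0.0134 and 0.0249), and day 14 overlapped it (change -0.49, adjusted p = 0.117). Under normexp the day 7 change was -0.02 (adjusted p = 0.97) and under the scan block it was -0.08 (adjusted p = 0.97). The day 28 call was lost without day 0 replicate 2 or 3 or day 28 replicate 1 or 2 (change -0.71 to -0.63, adjusted p = 0.063 to 0.091).

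Me1 was called lower on day 7, with a change of -0.74 ± 0.23 (limma adjusted p = 0.0311), which was lost with the scan as a block (-0.35, adjusted p = 0.88). It was also lost without day 0 replicate 2 or 3, any single day 7 array, day 14 replicate 1 or day 28 replicate 1 (change -0.76 to -0.58, adjusted p = 0.050 to 0.089). Acly, which makes cytosolic acetyl-CoA, lay between 2.40 and 2.93 on all 12 arrays and was not called. Acacb, the second carboxylase, and Elovl5, an elongase of unsaturated fatty acids, had changes of 0.17 to 0.81 and -0.23 to 0.45, none called. Scd, the stearoyl-CoA desaturase, read 2.10, -1.52 and -2.41 on day 0, so a single array, replicate 1, was more than 3 log2 units above the others. Its graft levels lay between -2.21 and -0.07, and the changes of -0.66, -0.04 and -0.91 were not called (adjusted p = 0.634, 0.976 and 0.485).

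**Figure D3:**
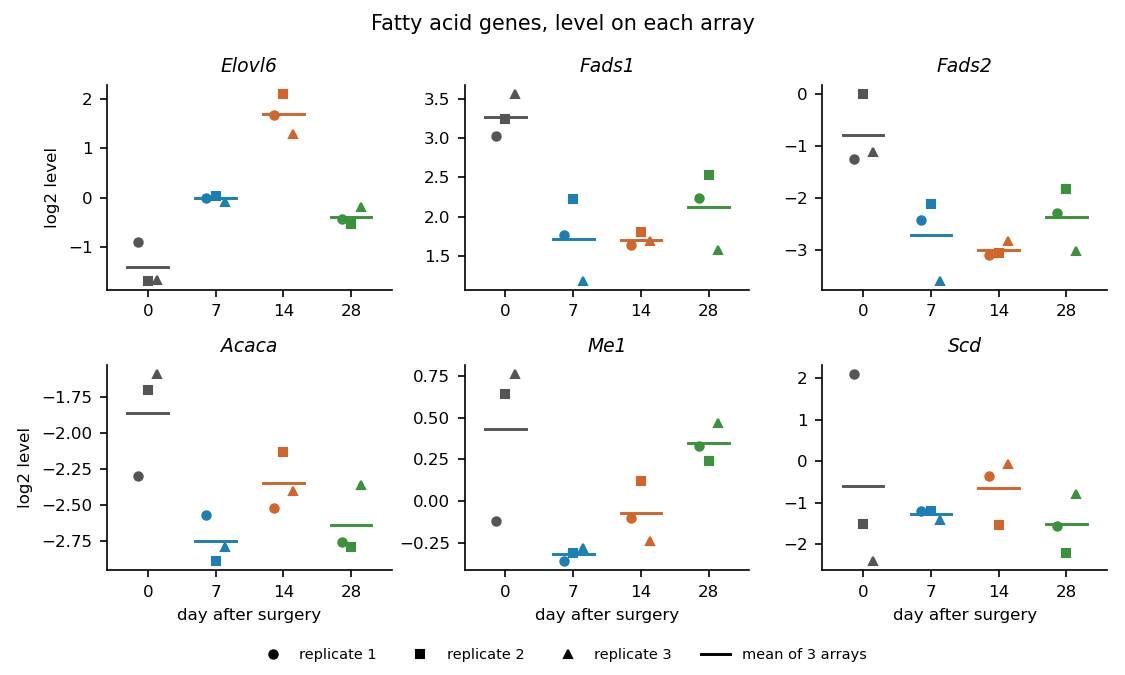
Level of 6 fatty acid genes on each of 12 arrays (y axis, log2 relative to the array's 75th percentile) by day after surgery (x axis), with 1 symbol per replicate and a line at the mean of 3. Elovl6 peaks on day 14, Fads1 and Fads2 lie below day 0 throughout, and the day 0 points of Scd span from -2.41 to 2.10.

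3 of the 5 triglyceride synthesis genes were higher on day 14 (60.0%, beside 20.1% of all probes). On day 7, 1 was higher (20.0%), near the 17.7% of all probes, and on day 28, 2 were (40.0%, beside 17.4%). None was lower on any day, beside 15.4%, 17.4% and 16.5% of all probes on days 7, 14 and 28, in a list of only 5. Agpat2, which adds the second fatty acid to glycerol phosphate, read -2.29, -1.77 and -3.11 on day 0, -1.37, -1.64 and -1.25 on day 7, -1.11, -1.01 and -1.18 on day 14, and -1.52, -1.66 and -1.34 on day 28. All graft arrays were above day 0. It was 1.96-fold, 2.45-fold and 1.85-fold higher (limma adjusted p = 0.0271, 0.00611 and 0.0393). Without day 0 replicate 3, its lowest array, the changes were 0.61, 0.93 and 0.52, and the day 28 call was lost (adjusted p = 0.074). The day 28 call was lost under 9 of 12 omissions, all but those of day 0 replicate 2 and day 7 replicates 2 and 3, and the day 7 call without day 7 replicate 1 or 3 (adjusted p = 0.067 to 0.078).

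Gpam, the mitochondrial acyltransferase of the first step, read -4.05, -3.33 and -3.90 on day 0, -3.15, -3.43 and -3.32 on day 7, -3.10, -3.14 and -3.03 on day 14, and -3.14, -3.24 and -2.97 on day 28. Days 14 and 28 lay above day 0, with changes of 0.67 ± 0.20 and 0.64 ± 0.20 (limma adjusted p = 0.0242 and 0.0326), and day 7 overlapped it. Lpin1, a phosphatidate phosphatase, read -1.48, -1.58 and -2.37 on day 0, and -1.01, -0.97 and -1.03 on day 14. The day 14 arrays did not overlap day 0, and the change was 0.80 ± 0.25 (adjusted p = 0.0269). Its changes of 0.60 on day 7 and 0.45 on day 28 were not called (adjusted p = 0.0865 and 0.185).

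The calls of Gpam and Lpin1 also rested on few arrays. Leaving out day 0 replicate 3 ended the calls of both, at 0.60 and 0.57 for Gpam on days 14 and 28 and at 0.52 for Lpin1 on day 14 (adjusted p = 0.056, 0.069 and 0.055). Any single day 14 array left out also ended the day 14 calls of both. Omitting day 0 replicate 1 ended both calls of Gpam, and any single day 28 array or day 14 replicate 1 ended its day 28 call (change 0.50 to 0.70 over these fits, adjusted p = 0.053 to 0.100). Normexp gave Gpam 0.32 and 0.24 on days 14 and 28 (adjusted p = 0.81 and 0.83) and Lpin1 0.64 on day 14 (adjusted p = 0.15), with no call. With the scan as a block, no triglyceride gene was called (Agpat2 day 14 change 1.18, adjusted p = 0.13). Dgat1 and Dgat2, the acyltransferases of the last step, were not called. Dgat2 read 1.55, 1.64 and 1.64 on day 0, 2.08, 1.19 and 3.27 on day 7, 1.83, 1.61 and 1.98 on day 14, and 0.82, 0.54 and 1.16 on day 28, where all arrays lay below day 0 with a change of -0.77 ± 0.42 (adjusted p = 0.177).

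3 of the 4 genes of LXR and sterol efflux rose on at least 1 graft day. On days 7, 14 and 28, 3, 3 and 2 of the 4 were called higher, beside 17.7%, 20.1% and 17.4% of all probes. None was called lower, beside 15.4%, 17.4% and 16.5% of all probes, in a list of only 4. Apoe, the apolipoprotein that accepts and carries cholesterol, and Abca1, which moves cholesterol onto lipid-poor apolipoproteins, were higher on all 3 graft days, and Abcg1, which moves it onto larger particles, on days 7 and 14. Nr1h3, the gene of LXR-alpha, was not called.

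Apoe read 3.92, 3.75 and 2.84 on day 0, 5.75, 5.26 and 6.14 on day 7, 7.04, 6.63 and 7.23 on day 14, and 5.58, 5.25 and 5.94 on day 28. Every graft array was above day 0, and day 14 was above all other arrays. It was 4.65-fold, 11.0-fold and 4.25-fold higher, with changes of 2.22 ± 0.34, 3.46 ± 0.34 and 2.09 ± 0.34 (limma adjusted p = 0.000847, 4.89e-05 and 0.00141). The scan block gave 2.30, 3.62 and 2.11 (adjusted p = 0.24, 0.018 and 0.035).

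Abca1 read 0.64, 0.45 and -0.37 on day 0, 1.85, 1.42 and 2.20 on day 7, 2.85, 3.09 and 2.95 on day 14, and 1.89, 1.52 and 2.18 on day 28. The order of the days was that of Apoe, with day 14 above all other arrays. It was 2.99-fold, 6.60-fold and 3.08-fold higher, with changes of 1.58 ± 0.30, 2.72 ± 0.30 and 1.62 ± 0.30 (limma adjusted p = 0.00292, 9.87e-05 and 0.0028). The scan block gave 1.93, 2.95 and 1.64 (adjusted p = 0.25, 0.02 and 0.042), and the calls against day 0 of both Apoe and Abca1 held with any array left out.

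Abcg1 was less certain. It read 3.31, 0.85 and 0.43 on day 0, 3.41, 2.86 and 4.22 on day 7, 3.57, 3.92 and 3.64 on day 14, and 3.21, 2.97 and 3.41 on day 28. Day 0 replicate 1 lay among the graft arrays of days 7 and 28. The changes were 1.96 ± 0.63 and 2.18 ± 0.63 on days 7 and 14 (limma adjusted p = 0.0366 and 0.021) and 1.66 ± 0.63 on day 28, which was not called (adjusted p = 0.0661). The day 7 call was lost under 10 of 12 omissions, all but those of day 0 replicate 1 and day 7 replicate 2, and the day 14 call without day 0 replicate 2 or 3 or any single day 14 array (change 1.63 to 2.25, adjusted p = 0.051 to 0.069). Nr1h3 read 1.70, 0.56 and 0.10 on day 0, with the same replicate highest, and its changes of 0.12, 0.55 and 0.46 were not called (adjusted p = 0.823, 0.247 and 0.334).

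**Figure D4:**
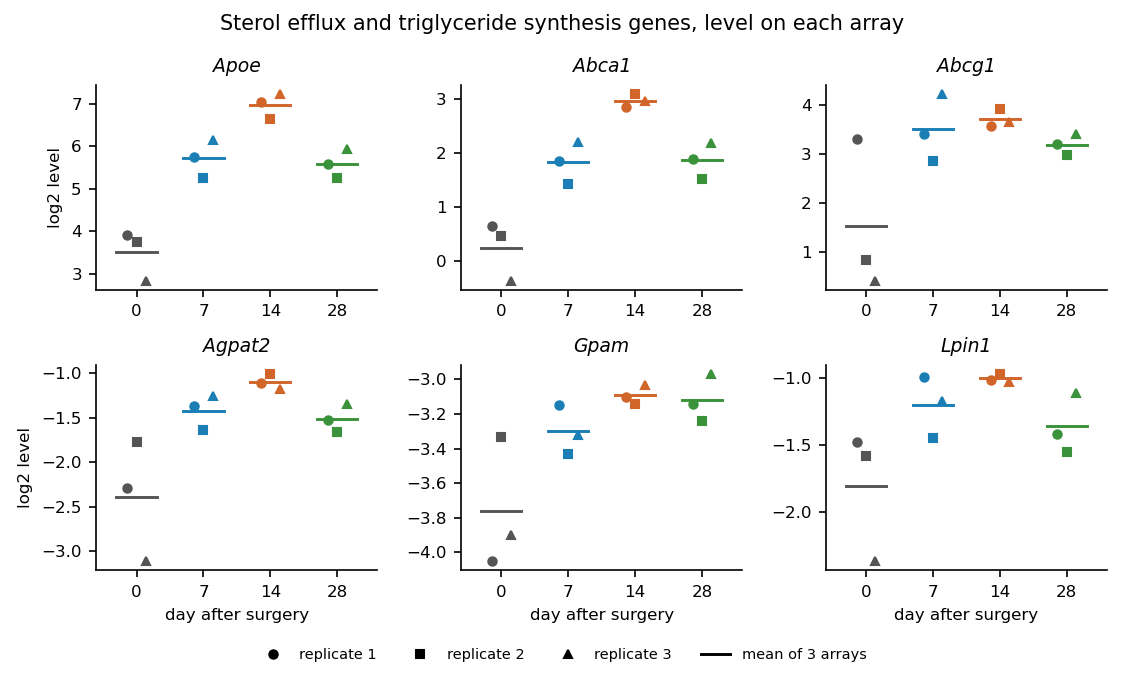
Level of 3 sterol efflux genes (top) and 3 triglyceride synthesis genes (bottom) on each of 12 arrays (y axis, log2 relative to the array's 75th percentile) by day after surgery (x axis), with 1 symbol per replicate and a line at the mean of 3. Apoe and Abca1 are highest on day 14, and 1 day 0 array of Abcg1 lies at the graft level.

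Between graft days, 2 of the 35 members changed. On day 14 against day 7, 1 member was higher and 0 were lower, beside 1.38% and 1.88% of all probes; on day 28 against day 14, 0 were higher and 2 lower, beside 2.4% and 2.08%; and on day 28 against day 7, 0 were called either way, beside 0.75% and 1.03%. Elovl6 was 3.28-fold higher on day 14 than on day 7, by 1.71 ± 0.26 (limma adjusted p = 0.00658), and 4.24-fold lower on day 28 than on day 14, by -2.08 ± 0.26 (adjusted p = 0.00332). Both calls held with any array left out, and the scan block gave 1.70 and -2.19 (adjusted p = 0.22 and 0.05, no call). Apoe was 2.60-fold lower on day 28 than on day 14, by -1.38 ± 0.34 (adjusted p = 0.0481), a call lost under 8 of 12 omissions of an array (change -1.55 to -1.20, adjusted p = 0.053 to 0.17) and with the scan as a block (-1.52, adjusted p = 0.10). Within a scan, Elovl6 was 1.70 higher on the day 14 array than on the day 7 arrays of scan 3 and fell by 2.19 on the day 28 arrays of scan 4 against the day 14 arrays there. These are the same differences as in the scan block, and their arrays also entered the pooled calls.

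The other member nearest to a call was Abca1, whose day 14 level differed from day 7 by 1.14 (adjusted p = 0.077) and whose day 28 level differed from day 14 by -1.10 (adjusted p = 0.0663). Over the list, 12 of 35 members had their highest mean on day 14. The share of all probes with that pattern was not counted, so nothing is read from this number. Of 6 liver genes, 2 were higher on day 14 than on day 7 and 3 were lower on day 28 than on day 14. Alb, chosen after its values were seen, read 3.49, 1.38 and 3.95 on the day 14 arrays and between -5.01 and -1.95 on the other 9. The mean level of 5 liver genes was -1.17 to -0.98 on day 14, against -3.28 to -3.08 on day 7, -3.92 to -3.61 on day 28 and -3.04 to -2.61 on day 0. Its part in the levels of Apoe and Elovl6, which hepatocytes also express, was not tested.

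Other genes of the same pathways, 54 tested of 72 listed, were called in both directions. There were 19 higher (35.2%) and 7 lower (13.0%) on day 7, 23 (42.6%) and 11 (20.4%) on day 14, and 19 (35.2%) and 8 (14.8%) on day 28, beside 17.7% and 15.4%, 20.1% and 17.4%, and 17.4% and 16.5% of all probes. Taken over all 54, the share called lower was near that of all probes on each day, though it differed between the lists below. In sterol synthesis and uptake, 2, 4 and 2 of 12 were higher and 1 was lower on each day, so the share higher on days 7 and 28 (16.7%) was near that of all probes. Npc2, which moves cholesterol out of lysosomes, was higher by 1.81, 1.98 and 1.93 (limma adjusted p = 0.000128, 6.12e-05 and 0.000138). Cyp51, which demethylates lanosterol, was higher on day 14 by 1.16 (adjusted p = 0.0329). Fdx1, which passes electrons to mitochondrial P450 enzymes, was lower by -0.95, -1.31 and -0.92 (adjusted p = 0.00262, 0.000311 and 0.00334).

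Among other fatty acid genes, 6, 8 and 6 of 16 were higher and 4, 6 and 5 lower. Thrsp, a regulator of fat synthesis in fat cells and liver, had the largest change of the 16. It read 1.79, 0.27 and 0.58 on day 0 and between -7.85 and -4.51 on the graft days, was not well above background on any day 7 array, and was at least 163-fold lower there (limma adjusted p = 2.48e-06). Acss2, which makes acetyl-CoA from acetate, was lower by -1.48, -1.64 and -1.04 (adjusted p = 0.000112, 4.89e-05 and 0.00112), and Acsl1, an acyl-CoA synthetase of fat cells, by -1.36, -1.82 and -1.96 (adjusted p = 0.0149, 0.00295 and 0.00259). Elovl2, an elongase of highly unsaturated fatty acids, was not well above background on any day 0 array and was at least 3.86-fold higher on day 14 (adjusted p = 0.00895).

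Of 12 other glycerolipid genes, 5, 5 and 6 were higher and 0, 2 and 0 lower. Gpat3, an acyltransferase of the endoplasmic reticulum, was higher by 2.35, 2.15 and 2.02 (limma adjusted p = 0.000342, 0.000434 and 0.00102), and Lpin3 by 1.35, 2.23 and 1.41 (adjusted p = 0.00345, 0.000157 and 0.00308). Cebpa, a transcription factor of fat and myeloid cells, was higher by 3.02, 2.95 and 2.30 (adjusted p = 0.00033, 0.000288 and 0.0018). Gpd1, which makes glycerol phosphate, was lower on day 14 by -2.84 (adjusted p = 0.0383), with a day 0 range of 0.06 to 2.39.

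In sterol esters, efflux and LXR, 6, 6 and 5 of 14 were higher and 2 lower on each day. The share higher was 42.9%, 42.9% and 35.7%, beside 17.7%, 20.1% and 17.4% of all probes. The share lower, 14.3% on each day, was near the 15.4%, 17.4% and 16.5% of all probes. Soat1, which esterifies cholesterol for storage, was higher by 3.41, 4.16 and 2.69 (limma adjusted p = 2.63e-05, 6.86e-06 and 0.000153), and Apoc1 by 5.88, 4.41 and 3.79 (adjusted p = 9.87e-05, 0.000404 and 0.0015). Abcg4, a transporter of nervous tissue, was lower by -5.82, -6.79 and -4.67 (adjusted p = 0.000144, 4.74e-05 and 0.000689). Rxra, the partner receptor of LXR, was lower by -3.26, -2.84 and -3.85 (adjusted p = 0.00615, 0.00599 and 0.00176), with its value on day 7 replicate 3 dropped as an outlier spot.

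Cell markers moved on the same days as the members. Their counts, here and in the paragraphs below, stand beside the same shares of all probes. These were 17.7%, 20.1% and 17.4% higher and 15.4%, 17.4% and 16.5% lower on days 7, 14 and 28. Smooth muscle and endothelial genes were well above background on all day 0 arrays, including Cnn1, Mylk, Esam and Emcn. They mark vessel wall and do not tell vein from artery. On days 7, 14 and 28, 7, 7 and 6 of 7 smooth muscle genes were lower and 5, 4 and 2 of 7 endothelial genes were lower, with 1 endothelial gene higher on day 28, Cdh5. Mylk changed by -3.73, -4.61 and -4.32, Cnn1 by -4.15, -4.99 and -3.17, and Lmod1 by -3.34, -4.68 and -3.09; Myocd changed by -4.01 and -5.79 on days 7 and 14. Esam changed by -3.16, -2.72 and -1.69, Emcn by -3.00, -2.69 and -1.64, and Tek by -1.56 and -1.44 on days 7 and 14.

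Macrophage genes rose, with 11, 12 and 10 of 14 higher and 0 lower. Itgam rose by 6.44, 6.38 and 5.17, Trem2 by 4.72, 5.87 and 5.04, Tyrobp by 4.62, 4.80 and 3.77 and Cd68 by 4.35, 4.26 and 3.24, the last with 2 day 0 values, since the spot of replicate 3 was dropped. The mean level of 13 macrophage genes was 3.14 to 4.07 on day 7, 3.73 to 4.04 on day 14 and 3.21 to 3.30 on day 28, against 0.08 to 1.80 on day 0. Within day 0 it was highest on replicate 1, the array on which Abcg1, Nr1h3 and Scd were also highest. The fat cell, endothelial and Schwann cell means were highest on that day 0 array too, at 1.84, 2.28 and 0.67. The smooth muscle mean was lowest on it, at 5.35. Apoe, Abca1, Abcg1, Soat1 and Apoc1 are all strongly expressed by lipid-laden macrophages, and the part of macrophage number in their change was not tested.

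Fat cell genes fell, with 9, 10 and 9 of 12 lower and 0 higher. Adipoq changed by -8.75, -8.25 and -4.96, Retn by -6.89, -7.45 and -6.24, Cidec by -6.57, -5.79 and -5.36 and Pck1 by -4.92, -3.61 and -5.44. The list's mean level was -2.33 to -1.97 on day 7, -1.74 to -1.63 on day 14 and -1.57 to -1.12 on day 28, against 1.10 to 1.84 on day 0. Of 3 brown fat genes tested, only Kcnk3 was called, lower on each day, and Ucp1 was not well above background on any array. Thrsp, Acsl1 and Acss2, which fat cells express, were lower on the same days, as were Fdft1, Sc5d, Fads1 and Fads2. Cebpa, which fat cells also express, was higher on those days, by 3.02, 2.95 and 2.30. The other 9 members called on all 3 graft days, among them Agpat2 and Elovl6, were higher. The part of fat around the vein in the members' changes was not tested.

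Other cell lists showed smaller or later shifts. Skeletal muscle genes were higher, 0, 4 and 7 of 7 on days 7, 14 and 28, with Tnnc2 higher by 4.96 and 8.14 on days 14 and 28, Tnni2 by 4.89 and 7.98, Myl1 by 4.59 and 7.78 and Myh1 by 3.99 and 6.11. Schwann cell genes were lower in 1, 2 and 0 of 7, among them Prx on day 7 (-1.18) and Mbp on day 14 (-3.47). Of 6 liver genes, 1, 2 and 0 were higher and 4, 0 and 3 lower; Ttr rose by 4.33 and 3.86 on days 7 and 14, Fgb changed by -3.39 and -4.03 and Serpina1 by -1.51 and -1.54 on days 7 and 28, with 2 day 7 values of Fgb, and Apoa2, not well above background on any day 7 array, was at least 2.19-fold lower there. Alb was lower on days 7 and 28 and higher on day 14. Of 5 sebaceous and gland genes, 1, 2 and 2 were lower and 0 higher: Dgat2l6 changed by -0.92, -0.68 and -1.35, and Fa2h, not well above background on any day 14 or day 28 array, was at least 7.06-fold and 7.38-fold lower there, while Aqp5 and Pip were above background on no array.

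**Figure D5:**
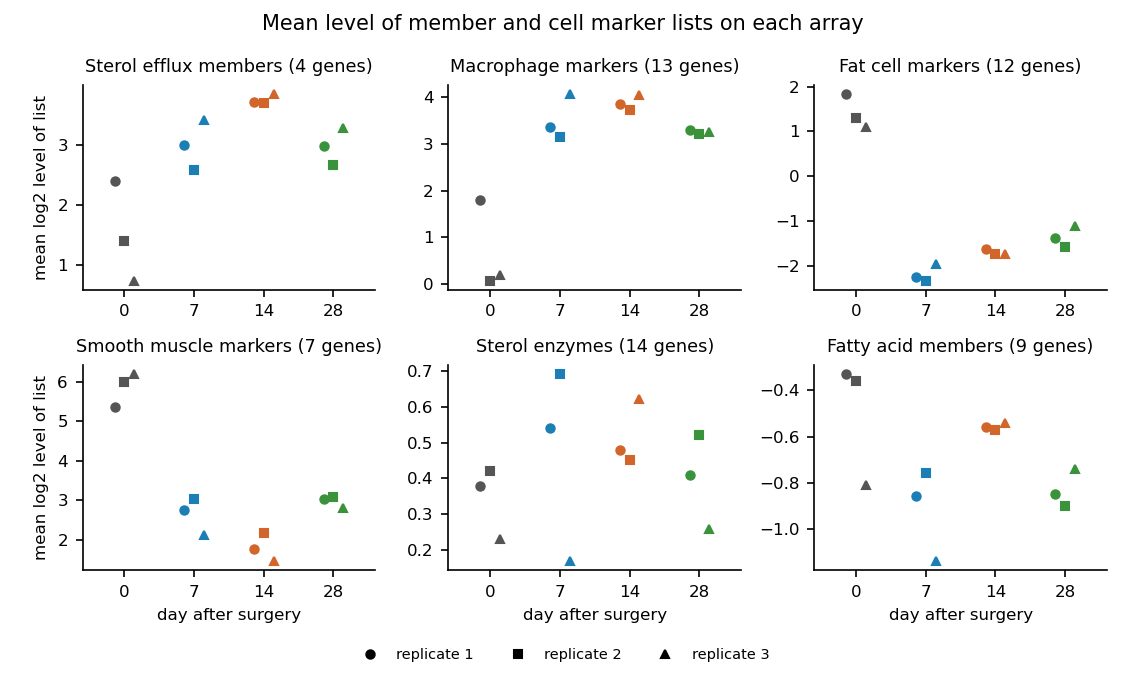
Mean level of member lists and cell marker lists on each of 12 arrays (y axis, log2 relative to the array's 75th percentile, averaged over the genes of the list) by day after surgery (x axis), with 1 symbol per replicate. Macrophage markers and efflux members are higher and fat cell and smooth muscle markers lower on every graft array than on every day 0 array. The sterol enzyme means of days 7 and 28 overlap those of day 0 (0.23 to 0.42), and those of day 14 (0.45 to 0.62) lie above them.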

How the data were processed

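RNA of 12 vein samples was measured on single-colour Agilent arrays. Spot intensity values were deposited as scanner output, already background-subtracted; per the file headers, Agilent Feature Extraction (version 11.0.1.1) made them. The deposited series value table holds log2 values of the authors, with medians of 7.1491 to 7.1528 per array; its direction and scale matched the scanner values, and its centring was not given in the sources used here. Total RNA was depleted of ribosomal RNA and labelled with random and oligo(dT) primers, per the labels' protocols. The array design is annotated on the rn4 build, and probes were named through RefSeq accessions of the GRCr8 table (14294 of 24684 probes).

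Here the log2 intensity minus the 75th percentile of its array was used, without control and outlier spots and as a mean over replicate spots. The 21063 probes that 3 or more of the 12 arrays detected well above background were tested with limma 3.58.1 in R 4.3.3 over all 12 arrays, with Benjamini-Hochberg adjustment at 0.05; the code was tested on simulated data. For a gene with several probes the brightest was used. Where a group was below background on all arrays, the fold is a bound from the dimmest detected probe of each array. The number of arrays limits the precision. The normexp alternative used spot and background medians, since mean signals were not in the files. Members, gene lists and the rule for named genes (up to 4 called genes in each role or list with the largest change of the mean of the 3 graft days, with every member accounted for) were chosen with earlier results of these data known. Promoter windows came from RefSeq GRCr8. Some genes of the other lists are not reported here.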

Additional observations from a re-analysis of the deposited data

Results flagged for a closer look

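Elovl6 differed between graft days. Its change against day 0 was 1.71 larger on day 14 than on day 7 (limma adjusted p = 0.00658), with all 3 day 14 arrays above all 3 day 7 arrays. On day 28 it differed from day 14 by -2.08 (adjusted p = 0.00332), with all 3 day 28 arrays below all 3 day 14 arrays. Apoe on day 28 differed from day 14 by -1.38 (adjusted p = 0.0481), again with no overlap between the arrays. These 3 differences were tested in the fit over all 12 arrays, and the Elovl6 and Apoe differences between days 28 and 14 had the same sign among the 4 arrays of those days that shared a scan. Those 4 arrays also entered the pooled differences, so this is a description and not a separate check. None of the 3 differences was called with the scan as a block. Groups of 3 arrays were too small for a test of single outlying arrays.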

How the results depend on the processing

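All 52 member calls kept their sign under every alternative run. The number kept as calls was 52 with mean probes or only probes detected on all 12 arrays, 51 without a filter or with the authors' deposited table, 50 with quantile normalization, 45 with array weights or the scan as a random block, 44 without the 2 arrays with many non-uniform spots, 28 with only the arrays of the 2 days compared, 25 with normexp, 7 with the scan as a fixed block and 8 with day 0 replicate 3 joined to the other day 0 scan, an alternative added after seeing the data. Leaving out 1 array kept 36 to 49. Scan and array number thus limit these calls.

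Members higher and lower were, with normexp, 4 and 3 on day 7 and 4 and 3 on day 28, 6 higher on day 14, and 1 lower on day 28 against day 14. Of all probes, in either direction, normexp called 14.7%, 16.8% and 12.3% on days 7, 14 and 28 and 0.641% on day 28 against day 14. With only the 2 days compared they were 4 and 1 on day 7, 5 and 3 on day 28, and 1 and 5 on day 28 against day 14. That setting called 13.7%, 22.0% and 30.2% of all probes in these 3 comparisons. The fixed scan block gave 0 and 0 on day 7, 3 and 0 on day 14, 3 and 1 on day 28, and 0 between graft days. It called 0.266%, 4.91% and 6.48% of all probes on days 7, 14 and 28. The joined block gave 0 and 0, 3 and 0, 3 and 2, and 0, and called 0.195%, 4.2% and 6.7% of all probes on those days. Array weights gave 14 and 8 on day 14 against day 7, 5 and 17 on day 28 against day 14, and 4 and 9 on day 28 against day 7, where they called 50.6%, 78.0% and 63.8% of all probes. On day 14 against day 7, 3 were higher with quantile normalization, with the authors' table and without the non-uniform arrays, which also gave 1 lower there and 4 lower on day 28 against day 14; no filter gave 1 lower there. Leaving out 1 array gave 4 to 11 higher and 5 to 8 lower on day 7, 6 to 13 and 3 to 6 on day 14, 4 to 10 and 3 to 6 on day 28, 1 to 3 and 0 to 0 on day 14 against day 7, 0 to 0 and 1 to 4 on day 28 against day 14, and 0 to 1 and 0 to 1 on day 28 against day 7.

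Normexp reversed 2 of 111 calls of the other named genes, both on day 7: Dgat2l6 was 0.43 (against -0.92) and Apoa2 0.73 (against -2.16). The fixed scan block kept 39 of the 111. The cause was not tested. No paired analysis was possible because the labels give all arrays the same replicate number, and the numbers used here only name arrays.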
